A study of Mus musculus with 3 samples.

Results

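Classical monocytes marked by Ly6c2 and Chil3 were taken from single-cell RNA libraries of mouse inguinal white fat by a fixed gate on raw counts of unique molecular identifiers (UMIs, each marking a captured RNA molecule). A barcode was a member when it had at least 500 detected genes and at most 15% mitochondrial UMIs, at least 3 UMIs over Ly6c2, Ccr2 and Plac8, and at least 1 UMI over Chil3, Thbs1 and F10. It also had at most 2 UMIs over C1qa, C1qb and C1qc, at most 1 of Cd209a, at most 1 over Irg1, Ccl12 and Spp1, and none of Siglech or Cd79a. Of 3862, 6705 and 6271 barcodes that passed the filters in the cold, CL and saline libraries, 152, 983 and 195 were members, 1330 of 16838 in all. The members were thus chosen by their own UMI counts of the gate genes, and the gate was set with values of these libraries in view, so the levels of the gate genes describe the members and test nothing.

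The libraries hold the stromal vascular fraction, which is fat with its adipocytes removed, of C57BL/6 mice. One library came from mice kept at 4 °C for 3 days, another from mice injected intraperitoneally with CL 316,243 (CL, an agonist of the β3-adrenergic receptor) at 1 mg/kg for 3 days, and another from saline-treated mice, for which no length of treatment is given. How many animals a library holds, how old they were and of which sex is not given in the labels, nor is any injection of the cold group. The libraries held 5050, 7943 and 7674 barcodes with 19899223, 29323106 and 25875379 UMIs, and members had medians of 4217, 3469 and 3417 UMIs per cell. Between libraries 4 to 9 kept barcode sequences were shared, none of them by members. With 1 library per treatment no test was possible: intervals below are 95% intervals of counting error, and the spread between animals is unknown. Intervals of gene levels and of their ratios also leave out the spread between cells. Levels are CPM, UMIs per 1000000 UMIs summed over the members of a library (727479 UMIs in cold, 3689651 in CL and 803126 in saline members), and differences are log2 ratios of CPM.

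Classical monocytes leave the bone marrow through the chemokine receptor Ccr2, circulate in blood with high surface Ly6C, enter tissue and there mature into macrophages or dendritic-like cells, while others turn into patrolling non-classical monocytes that lose Ly6C. They sense type I interferon through a receptor whose signal ends at interferon-stimulated response elements (ISREs) in the promoters of antiviral genes. MHC class II genes, by contrast, are read by Ciita together with factors on the X and Y boxes of their promoters, and mark cells that present antigen to helper T cells.

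Promoters of 3 interferon-induced genes and of an MHC class II gene are shown because these groups carried the differences between the libraries described below. The 250 bases before the RefSeq start are printed 5′ to 3′ on the gene's strand (RefSeq, GRCm38.p6). Capitals mark matches on either strand to the ISRE core, spelled GAAA, any 2 bases, GAAA, or, in H2-Aa, to the Y box, spelled CTGATTGG. In Isg15, 3 overlapping matches form the run in capitals.
Isg15 (chr4:156200819-156201068, minus strand): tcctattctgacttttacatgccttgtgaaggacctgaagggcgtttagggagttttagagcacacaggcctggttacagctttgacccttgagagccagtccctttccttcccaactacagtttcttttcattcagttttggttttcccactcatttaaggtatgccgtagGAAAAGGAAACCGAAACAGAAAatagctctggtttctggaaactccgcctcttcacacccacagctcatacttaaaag
Ifit3 (chr19:34583279-34583528, plus strand): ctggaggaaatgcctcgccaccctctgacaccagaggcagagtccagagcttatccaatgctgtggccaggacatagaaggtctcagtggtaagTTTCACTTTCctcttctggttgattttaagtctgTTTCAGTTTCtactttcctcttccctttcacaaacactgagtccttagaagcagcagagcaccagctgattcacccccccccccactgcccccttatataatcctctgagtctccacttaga
Ifit1 (chr19:34640639-34640888, plus strand): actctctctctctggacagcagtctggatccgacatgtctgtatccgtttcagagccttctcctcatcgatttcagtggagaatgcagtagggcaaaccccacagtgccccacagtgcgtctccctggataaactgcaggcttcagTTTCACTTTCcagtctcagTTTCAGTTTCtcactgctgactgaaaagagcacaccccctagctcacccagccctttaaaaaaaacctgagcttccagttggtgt
H2-Aa (chr17:34287824-34288073, minus strand): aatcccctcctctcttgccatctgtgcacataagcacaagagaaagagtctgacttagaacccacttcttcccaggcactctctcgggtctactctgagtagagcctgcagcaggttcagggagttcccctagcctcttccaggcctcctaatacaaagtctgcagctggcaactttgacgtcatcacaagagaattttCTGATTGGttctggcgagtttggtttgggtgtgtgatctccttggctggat
The first ISRE match began 78 bases before the start of Isg15, 156 before that of Ifit3 and 104 before that of Ifit1, and the Y box 51 before that of H2-Aa. Among the 40 interferon response genes with a RefSeq promoter, 21 (52.5%) held the ISRE core in this window, against 936 of all 27025 genes with such a promoter (3.46%). The promoters printed all hold a match, while those of Oasl2, Ifit2 and Fcgr1, described below, held no ISRE match. The Y box stood in 3 of 9 MHC class II and co-stimulation genes (33.3%), against 1198 of all 27025 genes (4.43%). A match is a run of letters and not a measured binding site.

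The members were then checked against their label. Lyz2, the lysozyme of myeloid cells, was detected in 95.4% of cold, 95.7% of CL and 87.2% of saline members, against 4.84%, 18.03% and 6.35% of B cells. Csf1r, the receptor for the macrophage growth factor Csf1, was detected in 83.6% of cold, 69.5% of CL and 67.2% of saline members, against 0.513%, 3.83% and 1.59% of B cells. Lyz2 and Csf1r, set against B cells only, do not tell classical monocytes from other myeloid cells. Ms4a4c, a marker of the label that the gate did not use, was detected in 56.6% of cold, 84.7% of CL and 55.9% of saline members. In B cells it was detected in 28.1%, 23.5% and 18.2%. Median depths were 4217, 3469 and 3417 UMIs in members and 2617, 1793 and 1817 UMIs in B cells. At least 10 UMIs of the fat progenitor genes Col1a1, Col1a2, Col3a1 and Dcn were present in 10 cold, 73 CL and 28 saline members (6.58%, 7.43% and 14.4%). Of these, 9, 55 and 23 had at most 2 UMIs of the myeloid adaptors Tyrobp and Fcer1g and so go against the label. These barcodes remain members under the rule, and values without them, called values without stromal members, are given below for the main gene lists and for some genes. Another 0 cold, 16 CL and 7 saline members, not among the stromal ones, also had at most 2 UMIs of Tyrobp and Fcer1g. They go against the label too and remain in the values without stromal members. All 11 fat progenitor markers were detected in every library, with summed levels of 9527 CPM in cold, 6776 CPM in CL and 17666 CPM in saline members. Endothelial markers summed to 137, 101 and 83.4 CPM, B cell markers to 89.3, 83.7 and 153 CPM and T and NK cell markers to 24.7, 42.3 and 39.8 CPM, with Cd79a at 0, as the gate requires. Dendritic cell markers summed to 352, 947 and 497 CPM, of which Bst2, also on the interferon list, made up 126, 874 and 354 CPM, and without Bst2 they summed to 225, 72.6 and 143 CPM, highest in cold. Among them Ccr9 was at 0 in every library. Siglech was at 0 as the gate requires, and Cd209a, which the gate limits to 1 UMI, was at 0 in cold members. Red cell genes summed to 1618, 2000.2 and 3774 CPM, and Hbb-bs was detected in 96.1% of cold, 39.9% of CL and 60.5% of saline members. The part of these other cells and of free RNA in the results was not tested, except where values without stromal members are given.

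Ly6c2 itself was detected in 63 of 152 cold members (41.4%, exact interval 33.5 to 49.7%), in 789 of 983 CL members (80.3%, 77.6 to 82.7%) and in 88 of 195 saline members (45.1%, 38.01 to 52.4%). After each cell was thinned to 2000 UMIs the shares were 29.7%, 74.6% and 35.7%. In B cells, which should lack the gene, 1.61% in cold, 8.74% in CL and 0.831% in saline had a Ly6c2 UMI, at the depths above. Members of cold and saline fat were thus often admitted through Ccr2 and Plac8, and values within the Ly6c2-positive members are given below for some lists and genes. Cells at the edge of the gate were few for the first condition, with 9 cold, 24 CL and 24 saline members at its minimum of 3 UMIs and 6, 29 and 13 cells just outside. They were many for the second, which 28, 210 and 41 members met with 1 UMI and which 330, 1139 and 582 otherwise fitting cells did not meet. The limit on Irg1, Ccl12 and Spp1 was passed with 1 UMI by 7, 201 and 24 members and kept out 4, 597 and 35 cells with 2 or more.

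Classical monocytes made up 3.94% of kept cold cells (exact interval 3.34 to 4.598%), 14.7% of CL cells (13.8 to 15.5%) and 3.11% of saline cells (2.69 to 3.57%). The CL share was 4.71 times the saline share, a log2 ratio of 2.24 (2.02 to 2.45), and 1.90 (1.66 to 2.14) above the cold share on the same scale. Between cold and saline the log2 ratio was 0.34 (0.04 to 0.64), and its direction was not stable: it was -0.13 (-0.48 to 0.22) when every cell was thinned to 2000 UMIs before gating and 0.01 without the condition on Chil3, Thbs1 and F10. Of cells with a UMI of the leukocyte gene Ptprc, 5.74% of cold, 18.8% of CL and 4.62% of saline cells were classical monocytes. Of kept cells other than B cells they were 6.09%, 15.1% and 3.92%, where B cells numbered 1365 in cold, 183 in CL and 1323 in saline. Restricted to members with a Ly6c2 UMI the shares were 1.63%, 11.8% and 1.40%.

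**Figure D1:**
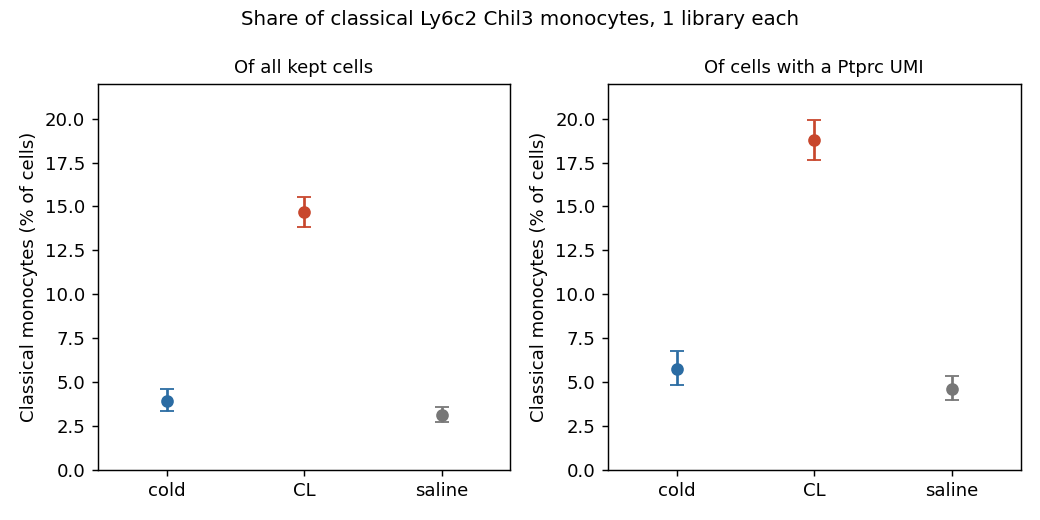
Share of classical monocytes in the cold, CL and saline libraries, in % of all kept cells (left) and in % of cells with a Ptprc UMI (right); points are the shares and bars exact 95% intervals of counting error. The CL library stands above both others, at 14.7% against 3.94% in cold and 3.11% in saline of all kept cells.

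Gate genes differed between the libraries in different ways. Ly6c2 (chromosome 15, 75108158 to 75111970, GRCm38), a GPI-anchored surface protein, stood at 236 CPM in cold, 1694 CPM in CL and 416 CPM in saline members, a CL over saline log2 ratio of 2.03 (95% interval 1.87 to 2.19), or 1.17 among members with a Ly6c2 UMI. Plac8, a small cysteine-rich protein of myeloid cells, was at 2579, 4026 and 1945 CPM in the same order. Ccr2, by contrast, had 698 CPM in cold, 916 CPM in CL and 784 CPM in saline members, log2 ratios of -0.17 for cold and 0.22 for CL over saline. Chil3, the secreted chitinase-like protein Ym1, was at 1089, 872 and 713 CPM, and Thbs1, the matrix protein thrombospondin, at 955, 576 and 926 CPM, with a CL over saline ratio of -0.69 (95% interval -0.81 to -0.56). Ms4a4c, a marker that the gate did not use, had 385 CPM in cold, 1098 CPM in CL and 413 CPM in saline members, a CL over saline log2 ratio of 1.41 (95% interval 1.25 to 1.58), or 0.91 among Ly6c2-positive members.

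Genes that stood out in members against all other kept cells, as a description of what the gate selected, included Hp and Ifitm6. Hp, the haemoglobin scavenger haptoglobin, was at 364, 499.8 and 224 CPM in cold, CL and saline members and at 7.46, 160.2 and 11.8 CPM in the other cells of those libraries, which in CL include 597 activated monocytes. Ifitm6, a membrane protein of the interferon-induced transmembrane family, had 197, 207 and 138 CPM in members and 7.004, 71.99 and 12.98 CPM elsewhere. Msrb1, which repairs oxidised methionine, Igsf6, Emb, Cd300a, Tlr2 and Cd14 were also among these 15 genes. Gsr, glutathione reductase, stood at 349 CPM in cold, 125 CPM in CL and 164 CPM in saline members, a cold over saline log2 ratio of 1.09 (95% interval 0.78 to 1.40). Rnf149, a membrane-bound ubiquitin ligase, had 739.5 CPM in cold, 292 CPM in CL and 359 CPM in saline members, a ratio of 1.04 (95% interval 0.84 to 1.26), and for both genes the ratio was under 1 without stromal members (0.86 and 0.82).

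Interferon response genes were higher in CL members than in both other libraries. All 49 measured list genes were higher in CL than in saline members, with a median log2 ratio of 1.51 against 0.07 over all genes tested, and 36 of 49 were 2-fold or more higher. Over all 7864 genes tested, 429 were that much higher in CL (5.46%) and 289 that much lower (3.67%). With ratios centred on their median these counts were 370 and 360. Against cold members all 49 were again higher, with a median of 2.31 and 42 genes past 2-fold, where 714 of 7870 genes tested were (9.07%) and 236 were 2-fold lower (3.00%). Cold and saline members differed the other way: 42 of 46 list genes were lower in cold, with a median of -0.98, and 18 of 39 were 2-fold or more lower, where 255 of 3980 genes tested were (6.41%) and 113 were 2-fold higher (2.84%). That median was -0.82 without stromal members and -0.39 among Ly6c2-positive members, so the cold difference was smaller there, while the CL median was 1.55 and 1.47. The count 2-fold lower in cold was 11 of 28 genes tested without stromal members, beside 141 of 3189 over all genes tested. Among Ly6c2-positive members it was 8 of 25, beside 145 of 1853. The comparisons with saline share that library.

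Isg15 (chromosome 4, 156199424 to 156200818), a ubiquitin-like protein that interferon induces, had 89.3 CPM in cold, 1037 CPM in CL and 176 CPM in saline members (intervals 68.96 to 114, 1004 to 1070.3 and 148 to 207 CPM). These intervals of counting error did not overlap, with CL far above saline and saline above cold. They leave out the spread between cells and between animals. The log2 ratio was 2.56 (95% interval 2.32 to 2.82) for CL and -0.97 (95% interval -1.42 to -0.54) for cold over saline. Ifit3 (chromosome 19, 34583531 to 34588731), a protein of the family that binds viral RNA, stood at 15.1 CPM in cold, 268 CPM in CL and 73.5 CPM in saline members, ratios of 1.87 (95% interval 1.49 to 2.27) for CL and -2.28 (95% interval -3.36 to -1.34) for cold over saline, the second of which was -1.62 without stromal members. For its neighbour Ifit1 the levels were 6.87, 257 and 75.95 CPM, from 5 UMIs in cold members, and for Ifit2, of the same family, 8.25, 162 and 49.8 CPM. Oasl2, of the oligoadenylate synthetase family that senses double-stranded RNA, had 16.5 CPM in cold, 258 CPM in CL and 78.4 CPM in saline members. Irf7, the transcription factor that amplifies the interferon response, had 107 CPM in cold, 881 CPM in CL and 299 CPM in saline members, ratios of 1.56 (95% interval 1.37 to 1.75) for CL and -1.48 (95% interval -1.87 to -1.10) for cold. Ifi27l2a, a small mitochondrial interferon-induced protein, was at 309, 2751 and 1007 CPM and Ifitm3, which blocks virus entry, at 2184, 5690.0 and 3338 CPM. In each of these genes the order was CL, then saline, then cold.

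Further genes also ranked among the 10 most above saline in CL. Of these, Isg20, Pyhin1 and Ifi47 differed little between cold and saline, while Rtp4, Phf11b and Phf11d were lower in cold. Isg20, an RNA exonuclease, had 24.7 CPM in cold, 123 CPM in CL and 22.4 CPM in saline members, log2 ratios of 2.46 (95% interval 1.78 to 3.22) for CL and 0.14 (95% interval -0.88 to 1.17) for cold over saline. Pyhin1, a nuclear protein of the family that senses DNA, stood at 86.6 CPM in cold, 392 CPM in CL and 101 CPM in saline members, and Ifi47, an interferon-induced GTPase, at 71.5, 269.7 and 75.95 CPM. Rtp4, a chaperone that interferon induces, had 21.99, 193 and 41.1 CPM, Phf11b 38.5, 279 and 72.2 CPM and Phf11d 19.2, 181 and 43.6 CPM in cold, CL and saline members. Pydc3, of the pyrin domain family, had 1, 118 and 3 UMIs, a CL over saline ratio of 3.10 (95% interval 1.52 to 5.40). Ly6a, the surface antigen Sca-1, is also made by fat progenitors: its CL over saline ratio was 0.50 over all members and 2.88 without stromal members, and its cold over saline ratio was -1.27 and 0.63. Ifit3 with Ifit3b, Phf11b with Phf11d and Ly6c2 with Ly6c1 are near copies, and counting may split reads between them.

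**Figure D2:**
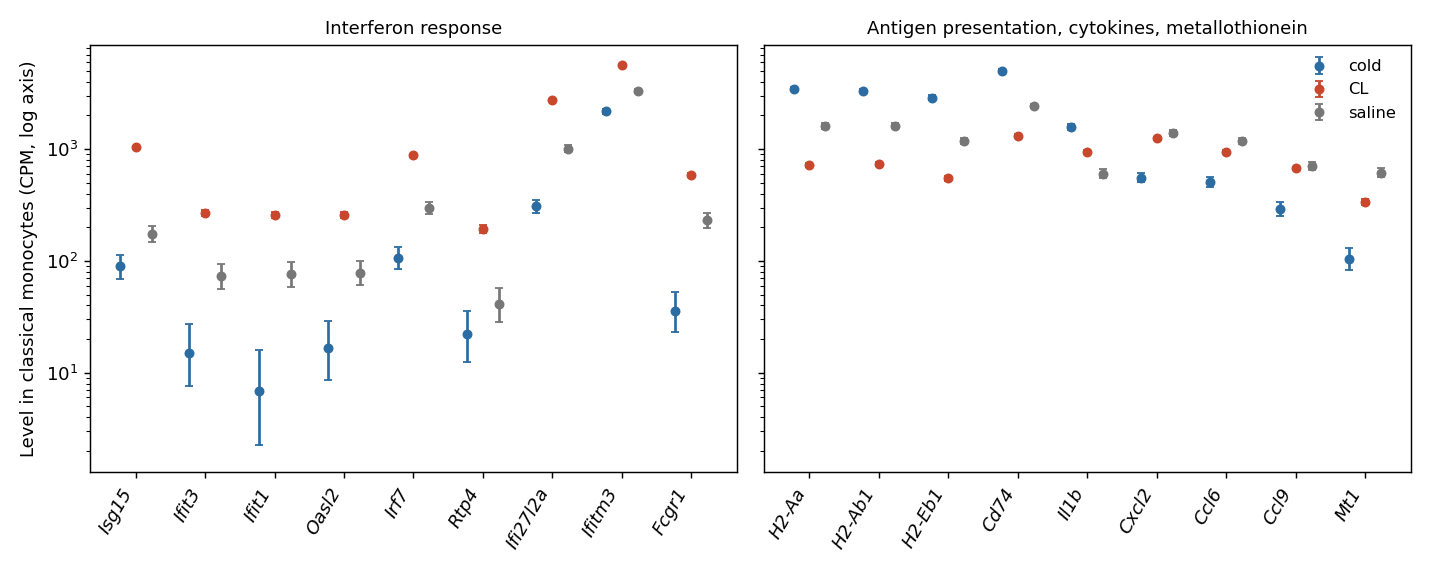
Levels in classical monocytes (CPM, log axis) of 9 interferon-induced or interferon-linked genes (left) and 9 genes of antigen presentation, cytokines and metallothionein (right), in cold, CL and saline members; points are levels and bars exact 95% Poisson intervals. Each gene on the left is highest in CL and lowest in cold, as Isg15 at 89.3, 1037 and 176 CPM, while H2-Aa runs the other way at 3426, 717 and 1607 CPM.

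The difference was spread over the cells of a library. In the median member, 0.596% of UMIs in cold, 2.13% in CL and 0.893% in saline came from the interferon list. The 10th percentile of CL members, 1.03%, lay above the saline median and below the saline 75th percentile of 1.398%. In cold the 90th percentile was 1.25%, under the CL 25th percentile of 1.54%. Other cell types of the same libraries differed in the same direction. The CL over saline median of the list was 0.96 in activated monocytes, 1.57 in resident macrophages, 2.56 in Cd209a dendritic cells, 1.58 in B cells, 1.23 in endothelial cells and 2.36 in fat progenitors. For cold over saline it was -0.77 in resident macrophages, -0.55 in Cd209a dendritic cells, -0.63 in B cells, -0.39 in endothelial cells and -0.51 in fat progenitors.

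**Figure D3:**
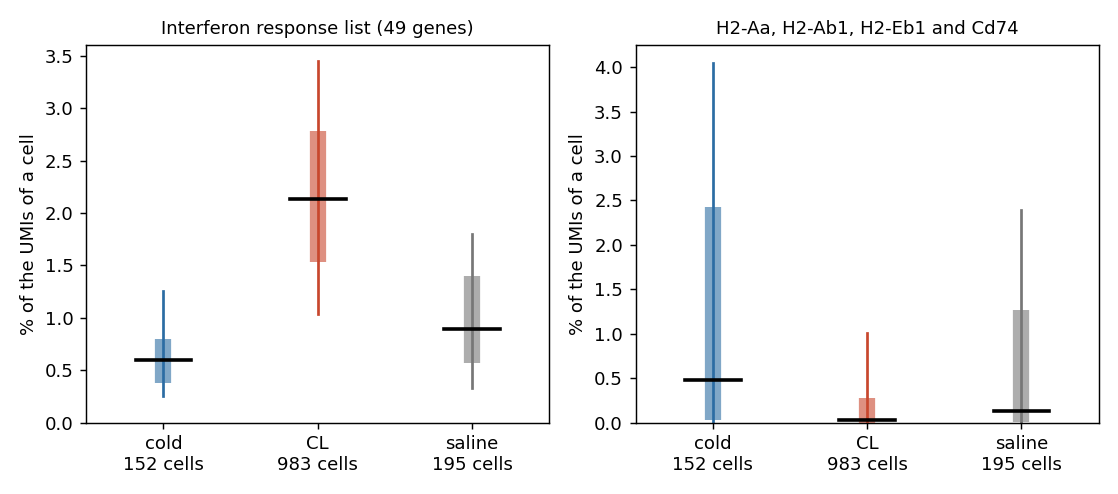
Share of a cell's UMIs from the 49 measured interferon list genes (left) and from H2-Aa, H2-Ab1, H2-Eb1 and Cd74 (right) in cold, CL and saline members, in %; black lines are medians over cells, thick bars the 25th to 75th and thin lines the 10th to 90th percentile. The interferon share has its highest median in CL (2.13%) and the MHC class II share in cold (0.483%).

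MHC class II genes ran the other way and were highest in cold members. Of 15 measured list genes, 12 were higher in cold than in saline members, with a median log2 ratio of 1.01, and 6 of 10 tested were 2-fold or more higher, beside 2.84% of all genes. Without stromal members 2 of 10 were, beside 97 of 3189 over all genes tested. In CL members 11 of 15 were lower than in saline, with a median of -0.50, and 3 of 11 tested were 2-fold or more lower, beside 3.67% of all genes. Among Ly6c2-positive members 0 of 11 were, beside 192 of 6959 over all genes tested. Over all members, dendritic cell markers moved with the class II genes. Their median over 5 of 12 genes measured was 0.65 for cold and -0.84 for CL over saline. It was 1.19 and -1.45 without stromal members, and 1.02 and 0.43 among Ly6c2-positive members. In the latter the class II list had 1.16 and -0.53, so for CL the lists differed in sign there. Ccr7, the receptor of migrating dendritic cells, had 85.2 CPM in cold, 12.7 CPM in CL and 32.4 CPM in saline members, and Flt3, a growth factor receptor of dendritic cells, 17, 9 and 12 UMIs (23.4, 2.44 and 14.9 CPM). Their part in the class II result was not tested. H2-Aa (chromosome 17, 34282744 to 34287823), the class II alpha chain, had 3426 CPM in cold, 717 CPM in CL and 1607 CPM in saline members. Cold was above saline, with a log2 ratio of 1.09 (95% interval 0.99 to 1.19), and CL below it, with a ratio of -1.16 (95% interval -1.26 to -1.07). These ratios were 0.81 and -1.45 without stromal members and 1.16 and -0.79 among Ly6c2-positive members. Its partner H2-Ab1 had 3346, 736 and 1625 CPM, H2-Eb1 2895, 547 and 1179 CPM and the invariant chain Cd74 5045, 1319 and 2434 CPM in cold, CL and saline members. Cd86, a co-stimulatory ligand for T cells, stood at 201 CPM in cold, 94.9 CPM in CL and 75.95 CPM in saline members, a ratio of 1.40 (95% interval 0.96 to 1.86) for cold and 0.32 (95% interval -0.08 to 0.74) for CL over saline. Ciita, the master regulator of class II genes, had 28, 59 and 12 UMIs and a cold over saline ratio of 1.37 (95% interval 0.34 to 2.48). An exception was Cd40, a receptor for T cell help, which was higher in CL than in saline, with a log2 ratio of 1.36 (95% interval 0.73 to 2.06).

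The cells varied widely in these genes. The 4 genes H2-Aa, H2-Ab1, H2-Eb1 and Cd74 made up 0.483% of UMIs in the median cold member, 0.0349% in CL and 0.127% in saline, and the 90th percentiles were 4.05%, 1.01% and 2.39%. H2-Aa was detected in 59.2% of cold, 31.9% of CL and 52.3% of saline members, or in 56.1%, 28.4% and 44.0% after thinning to 2000 UMIs. In endothelial cells, which should hold little of it, 9.02% of cold, 6.61% of CL and 10.997% of saline cells had a UMI, at medians of 3626, 2625 and 3089 UMIs, highest in saline and lowest in CL. The cold over saline median of the list was 0.77 without stromal members and 1.16 among Ly6c2-positive members. It was 0.20 without the condition on Chil3, Thbs1 and F10. In other cells of the same libraries that median was -0.08 in resident macrophages, 0.11 in Cd209a dendritic cells and 0.23 in B cells; the difference between these and 1.01 in classical monocytes was not tested. Itgax, the integrin CD11c of dendritic cells and non-classical monocytes, had 65.98 CPM in cold, 4.88 CPM in CL and 26.1 CPM in saline members, and its part in this result was not tested.

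**Figure D4:**
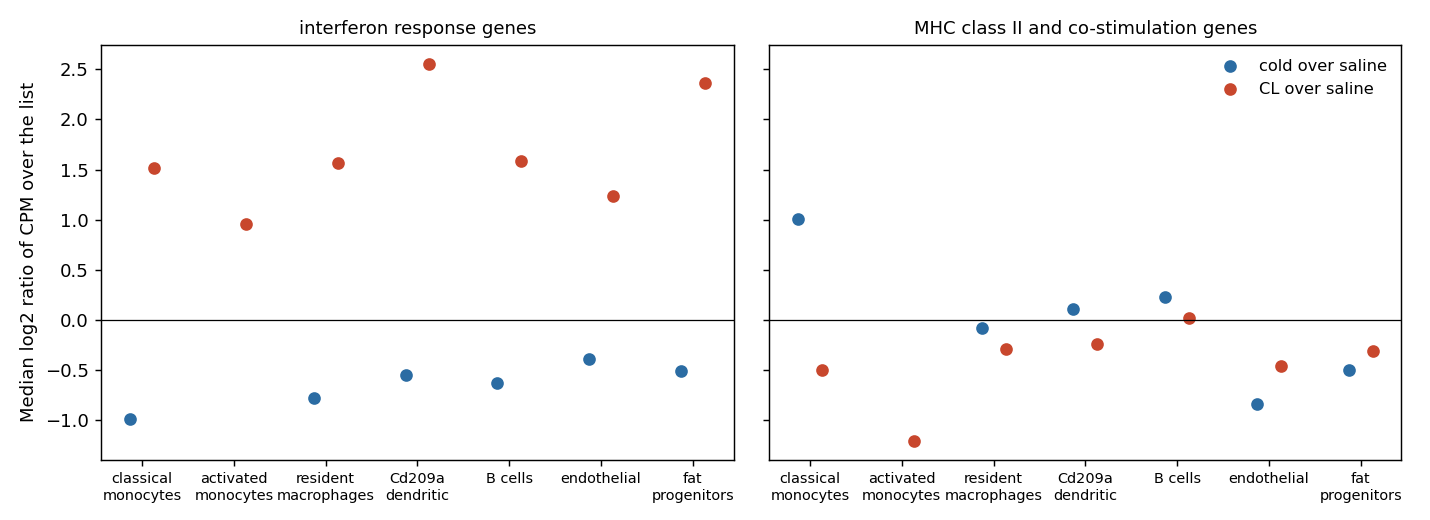
Median log2 ratio of CPM over the interferon response list (left) and the MHC class II and co-stimulation list (right) in 7 cell groups set by UMI gates, for cold over saline and CL over saline; there is no cold point for activated monocytes, of which the cold library held 4. On the left every CL point lies above 0 and every cold point below it; on the right the cold point of classical monocytes, 1.01, lies above those of the other groups.

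Inflammatory mediators split in cold members. Il1b (chromosome 2, 129364570 to 129371139), the cytokine interleukin 1β, had 1584 CPM in cold, 948 CPM in CL and 605 CPM in saline members, log2 ratios of 1.39 (95% interval 1.23 to 1.54) for cold and 0.65 (95% interval 0.51 to 0.79) for CL over saline. Its antagonist Il1rn stood at 68.7, 59.9 and 18.7 CPM in cold, CL and saline members, ratios of 1.88 (95% interval 1.02 to 2.82) for cold and 1.68 (95% interval 0.93 to 2.54) for CL over saline. Several chemokines were lower in cold. Cxcl2, which draws neutrophils, had 557 CPM in cold, 1255 CPM in CL and 1386 CPM in saline members, a cold over saline ratio of -1.32 (95% interval -1.48 to -1.15), or -2.17 among Ly6c2-positive members. Ccl6 had 507, 946 and 1187 CPM and Ccl9, a ligand of Ccr1, 293, 672 and 706 CPM. Ccl2, the ligand of Ccr2, had 65.98 CPM in cold, 397 CPM in CL and 200.5 CPM in saline members, ratios of -1.60 (95% interval -2.10 to -1.13) for cold and 0.98 (95% interval 0.75 to 1.23) for CL, which were -2.37 and 0.43 without stromal members. Ccl7, another ligand of Ccr2, had 27.5, 198 and 194 CPM, and its CL over saline ratio was 0.03 over all members and 1.84 without stromal members. Cxcl16, a chemokine with a membrane anchor, was higher in cold, at 166 CPM in cold, 73.2 CPM in CL and 56.03 CPM in saline members. Tnf had 14, 250 and 47 UMIs, and its cold over saline ratio was -1.60 (95% interval -2.58 to -0.72). Over the cytokines and chemokines listed, 5 of 21 genes tested were 2-fold higher and 7 2-fold lower in cold than in saline, with a median of -0.51, beside 2.84% and 6.41% of all genes. In CL against saline 4 of 24 were 2-fold higher, namely Ccl5, Il1rn, Cxcl9 and Cxcl10, and 0 lower, beside 5.46% and 3.67% of all genes.

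Surface receptors that guide monocytes differed gene by gene. Itgal, the integrin LFA-1 alpha chain, was higher in cold, at 264 CPM in cold, 123 CPM in CL and 108 CPM in saline members, a cold over saline log2 ratio of 1.28 (95% interval 0.91 to 1.67). Ly6i, a relative of Ly6c2, had 189.7 CPM in cold, 104 CPM in CL and 37.4 CPM in saline members, ratios of 2.34 (95% interval 1.77 to 2.97) for cold and 1.48 (95% interval 0.94 to 2.07) for CL over saline. Cxcr4, which retains monocytes in bone marrow, had 341 CPM in cold, 156 CPM in CL and 198 CPM in saline members. Of 23 receptors tested, 2 were 2-fold higher and 3 2-fold lower in cold than in saline, beside 2.84% and 6.41% of all genes. Without stromal members 1 of 22 was 2-fold lower, beside 141 of 3189 over all genes tested. In CL 6 were 2-fold higher than in saline and 0 lower, beside 5.46% and 3.67% of all genes. Among Ly6c2-positive members 3 of 23 were 2-fold higher, beside 555 of 6959 over all genes tested. Fcgr1 (chromosome 3, 96282909 to 96293969), the high-affinity IgG receptor that also responds to interferon, had 35.7 CPM in cold, 588 CPM in CL and 230.3 CPM in saline members, from 26 UMIs in cold members. It was detected in 13.8% of cold, 70.1% of CL and 43.1% of saline members, against 0.0733%, 4.37% and 0.378% of B cells at the depths above. Its ratio was -2.69 (95% interval -3.34 to -2.09) for cold over saline, 1.35 (95% interval 1.13 to 1.58) for CL over saline and 4.04 (95% interval 3.48 to 4.66) for CL over cold, and -2.65, 0.95 and 3.60 among Ly6c2-positive members. C3ar1, the receptor for complement C3a, had 3, 693 and 95 UMIs, a cold over saline ratio of -4.84 (95% interval -7.15 to -3.25). Saa3, an acute-phase serum amyloid, had 5.498 CPM in cold, 1307 CPM in CL and 252 CPM in saline members, and single cells held up to 389 UMIs in CL and 77 in saline.

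Ly6c2-positive and Ly6c2-negative members differed within each library in some of the genes that mark non-classical monocytes, and the split, made on a gate gene, is given as a description. Without stromal members, Ear2, a ribonuclease of non-classical monocytes, stood at 49.4 CPM in positive and 214 CPM in negative cold members, 36.7 and 154 CPM in CL, and 6.58 and 178 CPM in saline. Ace, the angiotensin-converting enzyme, had positive over negative log2 ratios of -1.74 (-2.60 to -0.95) in cold and -1.27 (-1.84 to -0.68) in CL, and 1 against 44 UMIs in saline, and Treml4, a receptor of patrolling monocytes, -0.95 (-1.61 to -0.33) in cold, -1.32 (-1.93 to -0.68) in CL and -3.38 (-5.33 to -1.90) in saline. For Cx3cr1, the fractalkine receptor, the ratio was -1.13 (-1.65 to -0.58) in CL, while the intervals in cold (-1.09 to 0.17) and saline (-1.22 to 0.26) included 0. Spn, the sialoglycoprotein CD43, had ratios of -1.59 (-2.52 to -0.75) in cold and -1.26 (-1.77 to -0.73) in CL, and an interval in saline (-1.80 to 0.04) that included 0. Median UMIs per cell were 4438 in positive and 3857 in negative cold members, 3445 and 3055 in CL, and 3450.0 and 3148 in saline. H2-Aa was lower in positive members in each library, with ratios of -0.74 (-0.87 to -0.62) in cold, -0.64 (-0.78 to -0.50) in CL and -1.21 (-1.38 to -1.04) in saline. Other genes split too. Lyz1 had 28.2 CPM in positive and 1025 CPM in negative cold members. It had 77.5 and 380 CPM in CL and 253 and 1008 CPM in saline. Retnla had 0 and 1170 CPM in cold, 6.42 and 4.67 CPM in CL, and 13.2 and 1338 CPM in saline. Ms4a4c went the other way, with ratios of 1.16, 0.80 and 1.11 in cold, CL and saline.

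Over all members, 15 of 21 non-classical genes were higher in cold than in saline, with a median log2 ratio of 0.52, and 13 of 21 were lower in CL, with a median of -0.48. Among Ly6c2-positive members these medians were 0.36 and 0.11. Treml4 had 143 CPM in cold, 30.1 CPM in CL and 56.03 CPM in saline members, ratios of 1.35 (95% interval 0.83 to 1.89) for cold and -0.90 (95% interval -1.41 to -0.36) for CL over saline, or 2.22 and 0.24 among Ly6c2-positive members. Cx3cr1 had 132 CPM in cold, 44.7 CPM in CL and 85.9 CPM in saline members, and Ace 179, 73.4 and 161 CPM in the same order. Without stromal members Ace had 137 CPM in cold, 41.6 CPM in CL and 78.4 CPM in saline, and its cold over saline ratio was 0.80, against 0.15 with them. For Ace the CL over saline ratio was -1.13 over all members, -0.91 without stromal members and 0.13 among Ly6c2-positive members. Pou2f2, a transcription factor of non-classical monocytes, had 205 CPM in cold, 179.7 CPM in CL and 101 CPM in saline members, ratios of 1.02 (95% interval 0.62 to 1.43) for cold and 0.83 (95% interval 0.50 to 1.18) for CL over saline, or 0.80 and 0.65 without stromal members.

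Many granule genes of early monocytes rested on 1 cell. Ngp, Camp and Ltf, which fill neutrophil granules, had 217, 204 and 104 UMIs in cold members and none in CL or saline, and all came from 1 cold barcode. The same barcode held all 394 UMIs of S100a8 and all 700 of S100a9, the calprotectin subunits, and 142 of 143 of Lcn2, with 8 UMIs of Ly6c2 and none of Csf1r, and goes against the label. These 6 genes headed the list of differences between cold and saline, and without this barcode the median of the granule list for cold over saline was 0.39 in place of 1.06. Hp differed on more cells: it was detected in 51.97% of cold, 61.5% of CL and 41.5% of saline members, against 0.0733%, 4.92% and 0.605% of B cells, and its ratio was 0.70 (95% interval 0.42 to 0.98) for cold and 1.16 (95% interval 0.94 to 1.39) for CL over saline, the second of which was 0.92 among Ly6c2-positive members. Lyz1, a near copy of Lyz2, between which counting may split reads, was detected in 13.8% of cold, 7.12% of CL and 9.74% of saline members, against 0.293%, 0.546% and 0.378% of B cells, and stood at 498, 100.3 and 435 CPM. Its CL over saline ratio was -2.12 (95% interval -2.33 to -1.90), and single cells held up to 101, 53 and 155 UMIs. Retnla, a secreted protein of alternatively activated macrophages, had 404, 20 and 369 UMIs, of which up to 230 in cold and 161 in saline came from 1 cell, while no CL cell had more than 1. Without stromal members, most UMIs of Lyz1 and Retnla in cold and saline lay in Ly6c2-negative members.

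Genes of macrophage maturation were lower in cold members. Of 23 measured, 21 were lower than in saline, with a median log2 ratio of -0.93, or -1.22 without stromal members, and 8 of 19 tested were 2-fold or more lower, beside 6.41% of all genes. In CL members 11 were higher and 12 lower than in saline, with a median of -0.04. Adgre1, the macrophage antigen F4/80, had 89.3 CPM in cold, 261 CPM in CL and 220.4 CPM in saline members, ratios of -1.30 (95% interval -1.74 to -0.88) for cold and 0.25 (95% interval 0.01 to 0.48) for CL. The lysosomal protease Ctsb had 601 CPM in cold, 1253 CPM in CL and 1041 CPM in saline members. Mrc1, the mannose receptor CD206, had 25, 278 and 83 UMIs, a cold over saline ratio of -1.59 (95% interval -2.30 to -0.93). Apoe, a lipid carrier, had 1871 CPM in cold, 1428 CPM in CL and 2174 CPM in saline members. Plin2, which coats lipid droplets, stood at 238 CPM in cold, 482 CPM in CL and 511 CPM in saline members, a cold over saline ratio of -1.10 (95% interval -1.37 to -0.84). In resident macrophages the maturation list had a cold over saline median of 0.15 and in B cells, which should lack most of these genes, of -1.27. The part of free RNA in this result was not tested.

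Matrix and structural genes also differed. Fn1, the matrix protein fibronectin that monocytes make as they enter tissue, had 987 CPM in cold, 746 CPM in CL and 1673 CPM in saline members, ratios of -0.76 (95% interval -0.89 to -0.63) for cold and -1.17 (95% interval -1.26 to -1.07) for CL over saline. Fat progenitors had 2769, 1708 and 3107 CPM. Without stromal members Fn1 was at 737 CPM in cold, 649 CPM in CL and 1209 CPM in saline, and the CL over saline ratio was -0.90, under 2-fold. Vcan, a large proteoglycan of classical monocytes, had 85.2 CPM in cold, 330.1 CPM in CL and 240.3 CPM in saline members, ratios of -1.50 (95% interval -1.93 to -1.08) and 0.46 (95% interval 0.24 to 0.68). S100a10, a partner of annexin A2, had 458 CPM in cold, 1009 CPM in CL and 898 CPM in saline members and S100a6 1687, 2853 and 2849 CPM in the same order, both lower in cold. S100a4, in contrast, stood at 1966, 2138 and 1810.4 CPM. F13a1, a coagulation factor of monocytes, had 209 CPM in cold, 321 CPM in CL and 330.0 CPM in saline members, a cold over saline ratio of -0.66 (95% interval -0.96 to -0.37). Over the coagulation and matrix list the medians were -0.06 for cold and -0.04 for CL over saline, near 0 over all members. They were 0.05 and -0.27 without stromal members, and -0.07 and -0.43 among Ly6c2-positive members.

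Some genes differed in cold members, several of them also in other cells of the cold library. Cirbp, an RNA-binding protein induced by mild cooling, had 64.6 CPM in cold, 28.5 CPM in CL and 19.9 CPM in saline members, a cold over saline log2 ratio of 1.70 (95% interval 0.85 to 2.62), and 77.2, 31.2 and 42.02 CPM in the other kept cells of those libraries. Rbm3, its relative, had 668 CPM in cold, 588 CPM in CL and 479 CPM in saline members, a ratio of 0.48 (95% interval 0.28 to 0.68). For the pair the median ratio was 1.09 in members, 0.51 in resident macrophages, 0.74 in B cells and 1.03 in fat progenitors. Slc15a2, a transporter of small peptides, had 45, 40 and 3 UMIs in members (61.9, 10.8 and 3.74 CPM) and 60.99, 8.300 and 3.67 CPM elsewhere, with a cold over saline ratio of 4.05 (95% interval 2.41 to 6.38). Dnase1l3, a secreted DNase of dendritic cells and macrophages, had 33, 5 and 2 UMIs. Spic, a transcription factor of iron-recycling macrophages, had 44, 14 and 3 UMIs, detected in 15.1% of cold, 0.916% of CL and 1.03% of saline members, against 0.22%, 0% and 0.529% of B cells, while the other kept cells stood at 4.78, 2.47 and 5.02 CPM. Its cold over saline ratio was 4.02 (95% interval 2.38 to 6.35), or 3.64 without stromal members. Mt1, a metal-binding metallothionein that glucocorticoids induce, had 104 CPM in cold, 336 CPM in CL and 615 CPM in saline members, ratios of -2.56 (95% interval -2.93 to -2.21) for cold and -0.87 (95% interval -1.02 to -0.72) for CL over saline, and 221, 414 and 703 CPM in other cells. Without stromal members its ratios were -3.26 and -1.76. The glucocorticoid list as a whole had medians of -0.54 for cold and -0.63 for CL in members and of -0.95 and -0.41 in B cells.

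Transcription factors of monocytes had medians of -0.02 for cold and 0.07 for CL over saline: Cebpb, which non-classical monocytes need, had 1474, 1282 and 1235 CPM, and Klf4, a factor of monocyte differentiation, 948, 667 and 936 CPM in cold, CL and saline members. Receptors for pathogens and for phagocytosis had medians of -0.01 and 0.28, with 26 of 33 higher in CL and 4 of 32 tested 2-fold higher, beside 5.46% of all genes. Among Ly6c2-positive members 1 of 32 was, beside 555 of 6959 over all genes tested. Alarmins and S100 genes stood at -0.39 and 0.12, lipid-associated macrophage genes at -0.36 and -0.38, and heat shock genes at -0.33 and -0.18. Nuclear genes of oxidative phosphorylation had -0.09 and 0.27, with 30 of 33 higher in CL and none of them 2-fold.

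**Figure D5:**
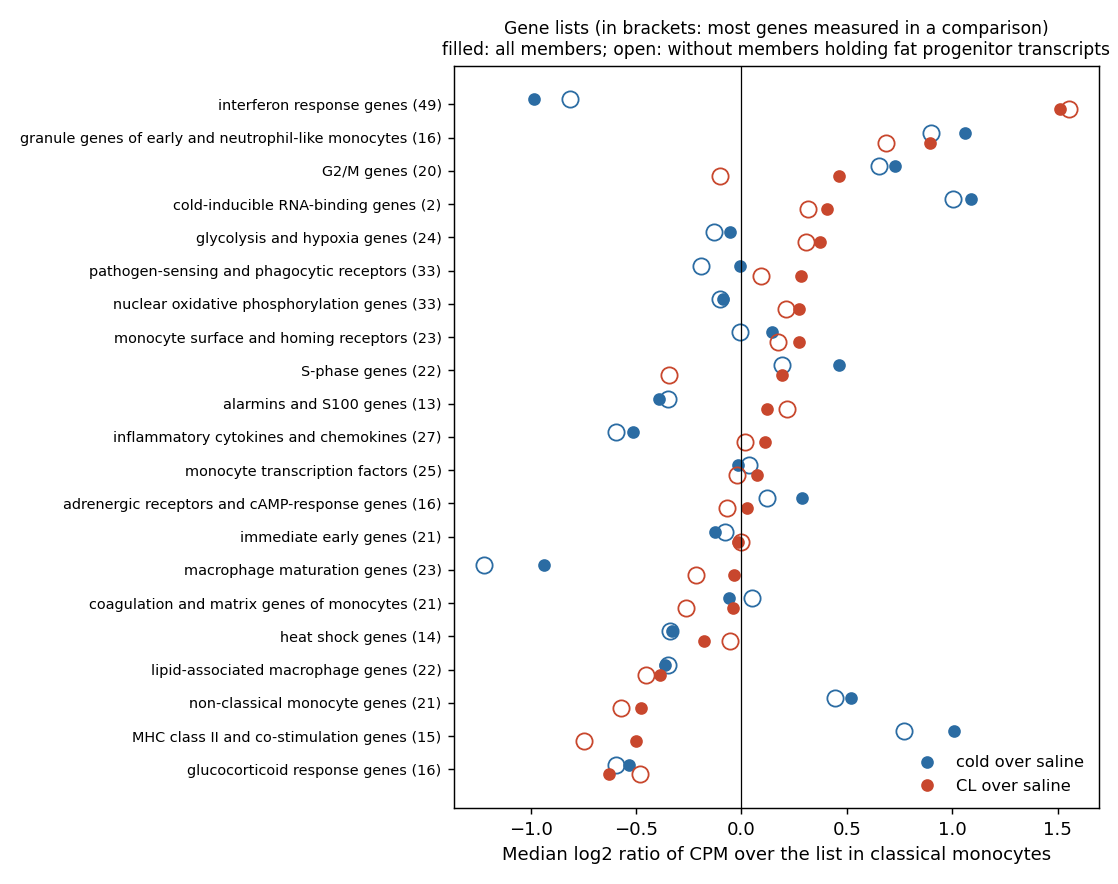
Median log2 ratio of CPM over each gene list in classical monocytes, for cold over saline and CL over saline, with the number of genes measured in brackets; filled points are all members, open points members without the 111 barcodes that hold fat progenitor transcripts. The interferon list stands at 1.51 for CL and -0.98 for cold, and the MHC class II list at -0.50 and 1.01.

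The 10 genes most below saline in CL members, ranked by the bound of the interval nearer to 0, were Inmt, C7, Agt, Cthrc1, Akr1c18, Sult1e1, Lyz1, Gpx3, Podn and Gpc3. Apart from Lyz1, each was detected in at most 12.8% of the members of any library, and without stromal members none of these 9 had more than 15 UMIs in any library. Gpx3, a secreted glutathione peroxidase, stood at 111 CPM in cold, 62.6 CPM in CL and 258 CPM in saline members, a CL over saline log2 ratio of -2.04, and 2, 15 and 1 UMIs without stromal members. In cold, Apod and Postn were also lower than saline, at 20.6, 145 and 406 CPM and 24.7, 69.4 and 205 CPM, as were Dpysl3, Cthrc1 and Olfml3. Without stromal members Apod had 1 UMI in cold, 17 in CL and 4 in saline, Postn 0, 8 and 0, Dpysl3 0, 6 and 3, Olfml3 0, 6 and 5, and Cthrc1 none, too few for a ratio. Without stromal members 117 genes of 6920 tested were 2-fold lower in CL than in saline, against 289 of 7864 with them, and 141 of 3189 in cold, against 255 of 3980. The counts of higher genes were 438 against 429 for CL and 97 against 113 for cold. Cxcl5, among the 10 genes most above saline in CL by the same rule, was detected in 1.42% of CL members, with up to 36 UMIs in 1 cell and 1 UMI in saline, and Myoc, among the 10 in cold, had 43 of its 46 UMIs in 1 cell.

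Set beside the cells closest to them, members had other levels of several genes than activated monocytes, resident macrophages and Cd209a dendritic cells. The activated monocytes pass the same gate but have 2 or more UMIs of Irg1, Ccl12 and Spp1, and numbered 4 in cold, 597 in CL and 35 in saline. In CL, members had 1037 CPM of Isg15, against 1707 CPM in activated monocytes. Cxcl2 stood at 1255 CPM in CL members and 4134 CPM in activated monocytes, Fcgr1 at 588 and 913 CPM, and H2-Aa at 717 and 304 CPM, so that H2-Aa was the one of these 4 genes that was higher in members. Hp, at 364, 499.8 and 224 CPM in cold, CL and saline members, stood at 1.39, 58.7 and 3.65 CPM in resident macrophages, which were gated by C1q and by Mrc1, Cd163 and Lyve1. Apoe was at 1871, 1428 and 2174 CPM in members, 21768, 4879.6 and 11537 CPM in resident macrophages and 16.5, 9.12 and 84.9 CPM in Cd209a dendritic cells. Il1b was at 1584, 948 and 605 CPM in members and 1941, 1551 and 1667 CPM in Cd209a dendritic cells. In each library H2-Aa was lower in members than in those cells, which had 10099, 7058 and 9467 CPM. Since the gates use genes that follow cell type, these levels are descriptions.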

How the data were processed

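Single-cell libraries of 3 treatments, 1 library each, were made with 10x Chromium 3′ version 3 chemistry per the labels. The deposited matrices give, for each barcode and gene, raw UMI counts, made by the authors with Cell Ranger 3.0.2 per the file headers and mapped to mm10 per the submitters' processing notes; the labels do not say whether barcodes were filtered further. From these counts, the members' UMIs were summed per library and scaled to CPM with Python 3.11.15, numpy 2.4.6, scipy 1.17.1 and pandas 2.3.3. Gene names were matched to GENCODE M21 for 28416 of 28692 genes. Levels carry exact Poisson intervals, shares exact Clopper-Pearson intervals and ratios conditional binomial intervals, all at 95% and for counting error only. The calculation was tested on data simulated with counting error only, which cannot show how the intervals hold where cells vary. Genes entered the 2-fold comparison when whichever library was higher had 30 UMIs or more, and list medians when both libraries together had 10 or more. With 1 library per treatment there are no p-values. Doublets were called with Scrublet (scanpy 1.11.5) and kept in; it called 4 cold, 64 CL and 86 saline kept cells, of which 0, 14 and 5 were members. In cold it called 0.104% of kept cells.

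The members and lists were chosen with earlier results of these data known. Named genes were the 10 highest and 10 lowest for cold and for CL over saline and the 5 and 5 for CL over cold, ranked by the bound of the interval nearer to 0. They had at least the level of all other kept cells, and mitochondrial, ribosomal, haemoglobin, immunoglobulin, T cell receptor, sex-linked, predicted and gate genes were left out. To these were added up to 5 genes of each list with the most UMIs, the gate genes and the 15 genes most enriched in members. Irf7, Cd86, Ciita, Cd40, Il1rn, Ccl2, Ccl5, Cxcl9, Cxcl16, Tnf, Ly6i, Ace, Ear2, Treml4, Cx3cr1, Spn, Itgax, Adgre1, Mrc1 and Csf1r fall outside this rule and were chosen after their values were seen. Alternatives changed the filters, the gate, the depth, the doublets, the scaling and the minimum UMIs; those without stromal members, with Ly6c2-positive members only, without B cells and without members holding neutrophil transcripts were added after seeing the data. Some genes are not reported here.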

Additional observations from a re-analysis of the deposited data

How the results depend on the processing

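Of 114 alternatives for shares and gene counts, 82 stayed within the counting interval or within 1.5 times, 31 moved and 1 reversed. Of 660 for list medians, 622 stayed, 38 moved and none counted as reversed. Of 3149 for named genes, 2457 stayed, 667 moved and 25 reversed. A list counted as reversed only where its main median passed a set size, and a gene only where its ratio was 2-fold or more. Smaller values could change sign without counting as reversed. An example was the non-classical list for CL over saline, at -0.48 over all members and 0.11 among Ly6c2-positive members. The cause of moves and reversals was not tested. No paired analysis was possible because each treatment has 1 library, and no library could be left out. The members per library (152, 983 and 195) limit genes with few UMIs: with a minimum of 50 UMIs, 68 genes were 2-fold higher and 147 lower in cold than in saline members.

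The log2 ratio of the member share for cold over saline was -0.13 with cells thinned to 2000 UMIs and 0.010 with no condition on Chil3, Thbs1 and F10. For CL over saline it was 1.80 with at least 1000 genes, 1.77 with a mitochondrial limit of 5%, 2.50 with at least 5 UMIs of Ly6c2, Ccr2 and Plac8, 1.35 with no condition on Chil3, Thbs1 and F10, 2.68 with none on Irg1, Ccl12 and Spp1, 3.07 for Ly6c2-positive members and 1.94 among cells other than B cells. For CL over cold it was 1.53, 1.21, 1.34, 2.54, 2.85 and 1.31 under these settings in the same order, leaving out the one on 5 UMIs, and 2.40 with thinned cells.

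With a minimum of 10 UMIs, 346 genes were 2-fold higher and 707 lower in cold than in saline, 747 and 664 in CL than in saline, and 1087 and 522 in CL than in cold. Genes 2-fold lower in cold than in saline numbered 159 with no condition on Chil3, Thbs1 and F10, 141 without stromal members and 145 in Ly6c2-positive members. Genes lower in CL than in saline numbered 481 with no condition on Irg1, Ccl12 and Spp1, 117 without stromal members and 192 in Ly6c2-positive members. Genes lower in CL than in cold numbered 387 with no condition on Chil3, Thbs1 and F10 and 458 with none on Irg1, Ccl12 and Spp1.

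A count of 0 was set to 3 UMIs in a ratio, so reversals of genes with few UMIs left, as Cxcl5 with 0, 1 and 0 in cold, CL and saline without stromal members, give no direction. Reversed log2 ratios without stromal members were, for cold over saline, 0.87 for Gpx3 and 0.63 for Ly6a; for CL over saline, -4.01 for Cxcl5 and 1.49 for Gpx3; and for CL over cold, -3.88 for Cxcl5, -1.29 for Dpysl3, -1.29 for Olfml3 and -0.88 for Postn. In Ly6c2-positive members they were 1.85 for Podn in cold over saline, 0.13 for Ace, 0.33 for Apod, 0.33 for Ccr7 and -0.56 for Cxcl5 in CL over saline, and -0.83 for Cxcl5, 0.67 for Inmt, 1.36 for Lyz1 and -0.11 for Olfml3 in CL over cold. With no condition on Chil3, Thbs1 and F10 they were 0.32 for Gpc3 in cold over saline, 0.31 for Apod in CL over saline, and -0.70 for Ccl5, 0.087 for Cxcl16 and 2.16 for Lcn2 in CL over cold. Without members holding neutrophil transcripts they were -2.85 for Lcn2 in cold over saline, and 6.10 for Lcn2 and 1.35 for S100a8 in CL over cold.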

Other observations

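Genes of adrenergic receptors and of the cAMP response had median log2 ratios of 0.29 for cold and 0.02 for CL over saline. Of these, 1 of 15 genes tested was 2-fold higher in CL, beside 5.46% of all genes. The list includes the gate gene Thbs1, and a median without it was not calculated. Immediate early genes, which respond to tissue dissociation, stood at -0.13 and -0.02, and 1 of 20 was 2-fold higher in cold, beside 2.84% of all genes. Glycolysis and hypoxia genes stood at -0.06 and 0.37.

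Of 23 S-phase genes listed, 2 reached 30 UMIs for cold over saline and 13 for CL over saline. Over the list the median log2 ratios were 0.46 for cold and 0.19 for CL, and without stromal members 0.19 and -0.34. H2afz, a histone variant on the G2/M list, had 1823 CPM in cold, 879 CPM in CL and 1154 CPM in saline members, a cold over saline log2 ratio of 0.66 (95% interval 0.54 to 0.78). Over that list the medians were 0.73 for cold and 0.46 for CL over saline, and without stromal members 0.65 and -0.10.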
